A study of Homo sapiens with 4 samples.

Results

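The proteasome and ubiquitin-conjugating genes were followed in RNA that came down with beta-catenin from 2 human colon adenocarcinoma cell lines. Members were all listed transcripts whose gene name starts with PSMA to PSMG and a number (proteasome subunits, regulators and assembly factors) or with UBE2 and a letter (E2 enzymes), or is a polyubiquitin gene, without pseudogene classes. The choice used names and classes, not levels. It gave 105 of the 9880 listed transcripts for HT-29, from 56 of 6489 gene names, and 85 of the 11943 for CaCo-2, from 51 of 7452 gene names. In HT-29 they comprised 21 transcripts of the 20S core, 23 of the 19S particle, 17 of regulators and assembly chaperones and 43 of E2 enzymes. In CaCo-2 the numbers were 13, 23, 10 and 35, and 1 was of UBB. A further 3 transcripts there belonged to PSMD5-AS1, an antisense gene that the name rule takes in. Being formed by gene name, the 19S group also takes in PSMD5, PSMD9 and PSMD10, which are assembly chaperones.

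Proteins are marked for destruction when an E1 enzyme activates ubiquitin, an E2 enzyme carries it, and an E3 ligase directs it to the substrate. The 20S core is a barrel of outer alpha rings and inner beta rings, whose beta subunits PSMB5, PSMB6 and PSMB7 cut peptide bonds. The 19S particle recognises ubiquitin chains, removes them and feeds the unfolded substrate into the barrel. Beta-catenin is itself a well known substrate of this route: without a Wnt signal it is phosphorylated, ubiquitinated by a ligase that contains BTRC, and degraded.

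The study asked which RNAs, long non-coding RNAs above all, associate with beta-catenin in nuclei of HT-29 and CaCo-2. RNA immunoprecipitation (RIP) uses an antibody to pull a protein out of lysate, after which the attached RNA is sequenced. The 4 libraries were a beta-catenin RIP and an input without antibody from untreated HT-29 cells, and the same pair from untreated CaCo-2 cells, with 1 library per group. RNA came from nuclear lysate, was collected on protein G beads and was sequenced after a TruSeq RNA preparation. Values are FPKM, fragments counted per unit of transcript length and sequencing depth, which the authors computed for each Ensembl transcript on the hg19 build.

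The tables hold transcripts that were higher in the RIP: none was lower there than in the input, the smallest fold was 1.5 in both tables, and the lowest RIP level was 1.31 FPKM for HT-29 and 0.842 for CaCo-2. The direction of every member is therefore set by the selection and is no result, and a member gene or transcript that is not listed was not analysed here. A mock pulldown was not analysed here, there were no replicates, and no difference between RIP and input was tested. Sequencing depth is unknown from these tables. Of 10 markers of colon epithelium, 7 were listed for HT-29 and 5 for CaCo-2, among them KRT18, KRT8 and KRT19 in both, while none of 4 blood, 4 stromal and 2 endothelial markers was listed in either.

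Of the 85 protein-coding genes that RefSeq names in these families, 56 had a listed transcript for HT-29 and 50 for CaCo-2. The tables shared 38 of these genes, and 17 were in neither. Shared names were 67.9% of the member names for HT-29 and 74.5% of those for CaCo-2, beside 59.2% and 51.6% of all gene names listed. By gene, the 19S group, assembly chaperones included, overlapped most, with 12 of its 20 genes in both tables. Regulators and assembly chaperones had 5 of 9, the E2 enzymes 16 of 35 and the 20S core 5 of 19. The share of all RefSeq protein-coding genes that had a listed transcript is not given here. Whether these counts out of RefSeq genes are particular to the families is therefore not known. By transcript, regulators and assembly chaperones shared 29.4% of those for HT-29 and 50.0% for CaCo-2, against 26.1% of each for the 19S group. All 7 alpha subunits other than the testis subunit PSMA8 were listed for HT-29 and 5 of them for CaCo-2. No beta subunit was in both tables: PSMB4, PSMB5, PSMB6, PSMB8 and PSMB10 were listed for HT-29, and PSMB7 and PSMB9 for CaCo-2. PSMB8, PSMB9 and PSMB10 are the subunits that interferon induces to form the immunoproteasome.

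**Figure D1:**
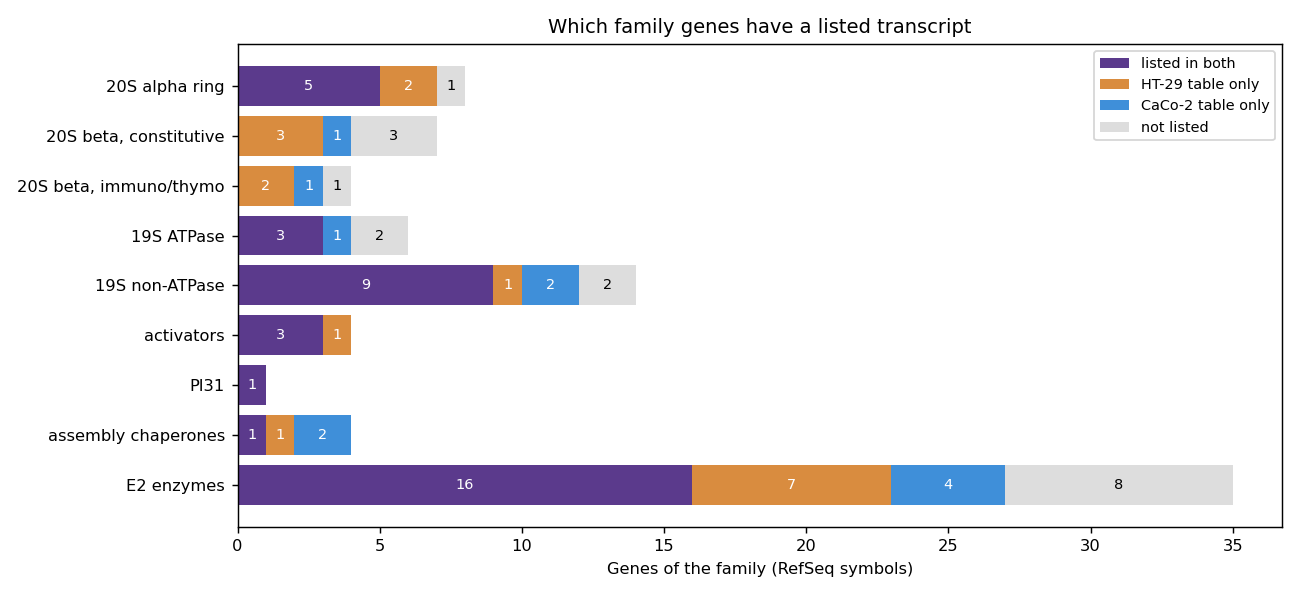
Number of genes per family (x axis, genes with a RefSeq symbol) that had at least 1 listed transcript in both tables, in 1 table or in none. The non-ATPase genes of the 19S group, assembly chaperones included, had 9 of 14 in both tables, and the constitutive beta subunits of the 20S core 0 of 7.

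Ratios compare RIP with input after 1 FPKM was added to each, on the log2 scale, which understates the fold of low transcripts. With 1 FPKM or more required in either library, 65 of 105 member transcripts in HT-29 passed 2-fold in RIP over input (61.9%), against 56.0% of all listed transcripts. For CaCo-2 the count was 35 of 78 (44.9%), against 40.8%, and the other 7 members did not reach 1 FPKM. The median log2 ratio of the members was 1.24 for HT-29 and 0.96 for CaCo-2, beside 1.14 and 0.82 over all listed transcripts that passed. Both shares lay near those of the whole tables, so they show nothing particular to these genes. With 0.1 FPKM added in place of 1 they lay below the tables, at 73.3% against 74.8% for HT-29 and 64.1% against 67.2% for CaCo-2. The median RIP level of the members was 3.60 FPKM for HT-29, beside 2.45 over the table, and 1.57 for CaCo-2, beside 1.55. An input listed at 0 puts a transcript past 2-fold as soon as it reaches 1 FPKM, and this held for 36 of the 65 and 28 of the 35. Where both libraries had at least 1 FPKM, 17 of 47 members passed in HT-29 (36.2%, against 25.2%) and 3 of 22 in CaCo-2 (13.6%, against 13.1%).

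**Figure D2:**
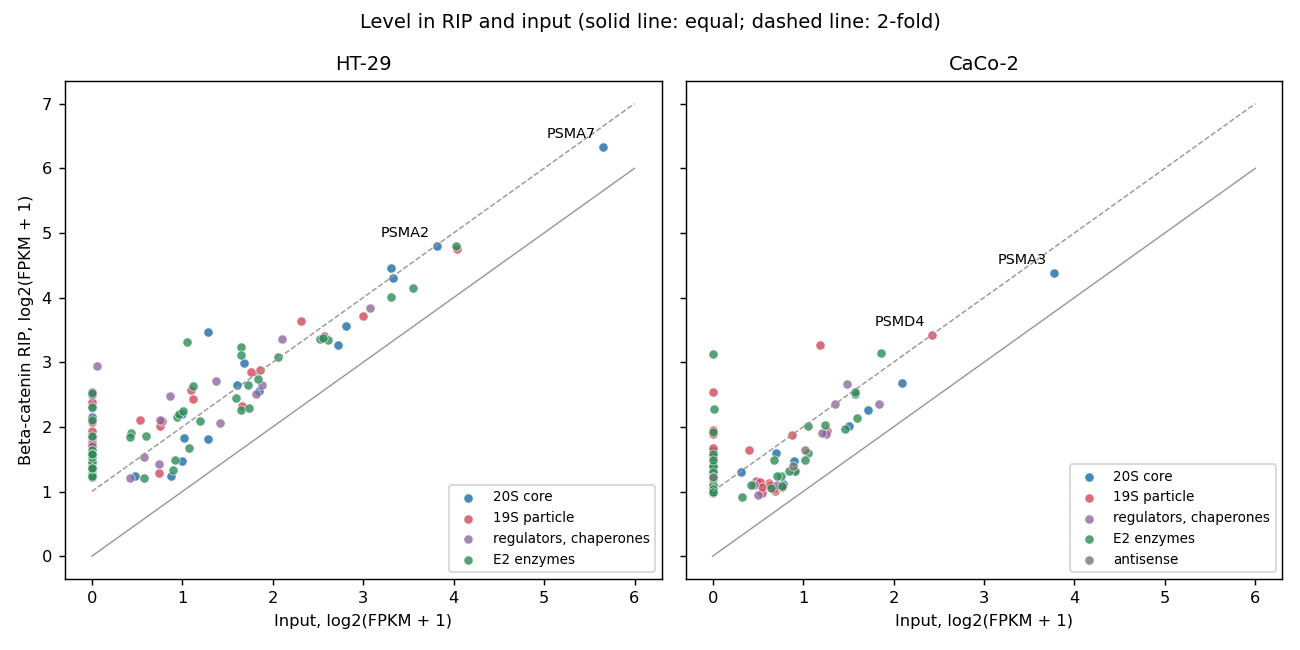
Level of each transcript of the 20S, 19S, regulator, E2 and antisense groups in the RIP (y axis) and in the input (x axis), as log2 of FPKM plus 1, with a point per transcript coloured by group and a name at the 2 highest. Points at the left edge have an input listed at 0. PSMA7 in HT-29 was the highest at 79.6 FPKM in the RIP, and PSMA3 in CaCo-2 at 19.8 FPKM.

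The 3 main groups differed in how many transcripts passed 2-fold. In HT-29 the 19S particle had 18 of 23 (78.3%), the E2 enzymes 27 of 43 (62.8%) and the 20S core 10 of 21 (47.6%), against 56.0% of the table. In CaCo-2 it was 10 of 20 (50.0%) for the 19S particle, 16 of 32 (50.0%) for the E2 enzymes and 5 of 13 (38.5%) for the 20S core, against 40.8%. The 20S core was thus the lowest of the 3 in both lines, but with 1 library per group these gaps have no error and were not tested. Where both libraries of HT-29 had at least 1 FPKM, the 20S core (4 of 12) was no longer below the E2 enzymes (6 of 19). With 0.1 FPKM added in place of 1, the 19S share in HT-29 was 78.3% against 74.8% of the table. Median log2 ratios were 1.31, 1.24 and 0.98 for the 19S, E2 and 20S transcripts for HT-29, and 1.0, 1.0 and 0.90 for CaCo-2.

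The groups also differed in the kind of transcript listed, and the order of the E2 enzymes and the 20S core was not the same in the 2 lines. Protein-coding transcripts were 7 of the 23 from the 19S particle in HT-29 (30.4%), 27 of 43 from E2 genes (62.8%) and 11 of 21 from the 20S core (52.4%), with 49.6% in the table. Among protein-coding transcripts alone, 5 of 7, 15 of 27 and 5 of 11 passed 2-fold in that order, against 53.2% of the table. For CaCo-2, protein-coding transcripts were 39.1% of the 19S, 51.4% of the E2 and 53.8% of the 20S transcripts, with 43.0% in the table, and 5 of 8, 9 of 15 and 1 of 7 of them passed, against 42.0%. An input at 0 was found for 10 of the 23 from the 19S particle in HT-29 (43.5%), 16 of 43 from E2 genes (37.2%) and 5 of 21 from the 20S core (23.8%), beside 31.8% in the table. For CaCo-2 it was 39.1%, 45.7% and 30.8%, beside 29.0%. The part of transcript class and of input at 0 in the group counts was not tested.

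**Figure D3:**
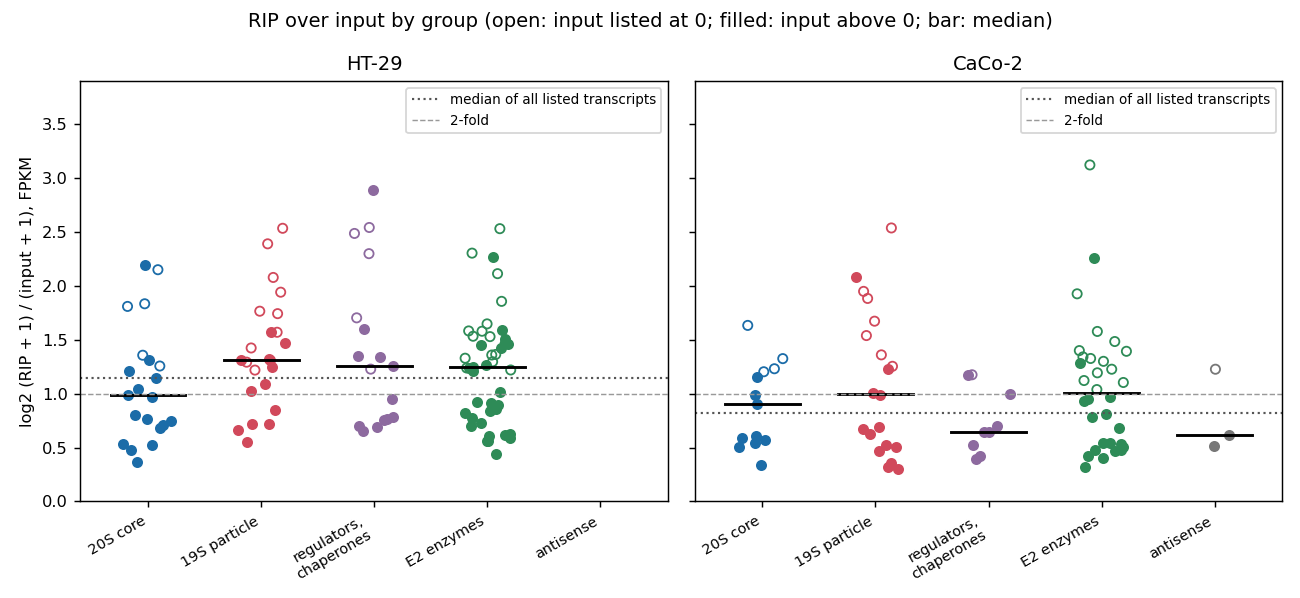
Log2 ratio of RIP over input with 1 FPKM added (y axis) for each transcript of these groups that passed the filter. Open points have an input listed at 0, the bar is the group's median, the dashed line is 2-fold and the dotted line the median of the table (1.14 for HT-29 and 0.82 for CaCo-2).

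In the 20S core, 7 of 15 alpha subunit transcripts passed 2-fold for HT-29 and 5 of 10 for CaCo-2. PSMA7, an alpha ring subunit, was the most abundant member in HT-29: ENST00000370873 (chromosome 20, 60711791 to 60718486) was at 79.6 FPKM in the RIP against 49.4 in input, a log2 ratio of 0.68. A minor PSMA7 isoform, ENST00000370858, was listed in both lines. Its levels were 2.51 FPKM in the RIP and 1.44 in input for HT-29, then 3.79 and 2.28 for CaCo-2. PSMA2 had 2 protein-coding isoforms in HT-29, at 26.8 against 13.1 and at 18.7 against 9.03 FPKM. With 1 FPKM added, their log2 ratios of 0.98 and 0.97 fell just short of 2-fold, whereas the plain folds were 2.05 and 2.07.

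PSMA3 differed by isoform between the tables. In HT-29, ENST00000412908 (chromosome 14, 58711595 to 58738730) was at 10.1 FPKM in the RIP against 1.43 in input, the highest ratio of the 20S core there (log2 2.19). In CaCo-2, ENST00000216455 was at 19.8 against 12.7 FPKM, a log2 ratio of 0.60. The 2 isoforms are not the same molecule, so these values do not compare the lines. PSMA1 had 5 listed transcripts in CaCo-2, more than any other member gene, at 1.30 to 3.03 FPKM in the RIP, and 3 of them had an input listed at 0. PSMA4, also of the alpha ring, was listed by the same retained-intron form in both lines, at 1.56 FPKM with input at 0 for HT-29 and at 1.24 against 0.00494 for CaCo-2. PSMA5, another alpha subunit, was listed in HT-29 by a processed transcript at 6.97 against 2.21 FPKM.

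Of the beta subunits, PSMB5 stood out by its deposited statistics. PSMB5 carries the chymotrypsin-like activity of the core and is the main target of the drug bortezomib. Its transcript ENST00000361611 (chromosome 14, 23495060 to 23504354, minus strand) reached 20.9 FPKM in the RIP of HT-29 against 8.86 in input, a log2 ratio of 1.15. The authors' deposited table gives it a q of 0.0249, which was computed from 1 library per side. PSMB6, the caspase-like subunit, was listed by a nonsense-mediated decay transcript at 5.28 against 2.04 FPKM. PSMB7, the trypsin-like subunit, was at 5.43 against 3.26 FPKM in CaCo-2. Of the immunoproteasome subunits, PSMB10 was at 10.8 against 6.03 FPKM and PSMB8 at 8.58 against 5.62 for HT-29, and PSMB9 at 1.77 against 0.871 for CaCo-2. None of these 3 reached 2-fold with 1 FPKM added.

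The ATPases of the 19S base, which unfold the substrate, were listed by PSMC3, PSMC4 and PSMC5 in both lines and by PSMC6 in CaCo-2. PSMC4 in HT-29 had the highest RIP level of the 19S particle, 26.1 FPKM against 15.4 in input, a log2 ratio of 0.72. PSMC3 was at 4.94 against 1.14 FPKM for a protein-coding isoform and at 6.39 against 2.63 for a nonsense-mediated decay transcript. In CaCo-2 all 5 ATPase transcripts were retained-intron forms at 1.01 to 1.38 FPKM in the RIP, close to the lowest level of the table.

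Among the non-ATPase subunits, PSMD8, a lid subunit, was listed by the same protein-coding transcript in both lines, ENST00000592561 (chromosome 19, 38865412 to 38872894). The RIP of HT-29 held 12.2 FPKM against 7.00 in input, and that of CaCo-2 held 8.61 against 1.28. The log2 ratios were 0.72 and 2.08, the second being the highest of the 19S particle in CaCo-2 among those that reached 1 FPKM in each library. PSMD4, a ubiquitin receptor, was at 9.66 against 4.37 FPKM in CaCo-2 (log2 0.99), and a retained-intron form at 1.45 against 0.677 in HT-29. PSMD13, another lid subunit, was at 11.4 against 3.97 FPKM in HT-29 for a nonsense-mediated decay transcript and at 4.39 against 1.17 for a protein-coding one.

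PSMD2, the large scaffold subunit of the base, had 4 listed transcripts in each line. In HT-29 input was listed at 0 for all 4, with RIP levels of 4.79, 4.24, 1.68 and 1.45 FPKM. For CaCo-2, 3 of the 4 had an input at 0, and RIP levels ran from 0.970 to 2.86 FPKM. Other PSMD2 isoforms were not analysed here, so these zeros concern the listed forms and not the gene. PSMD14, the deubiquitinase of the lid, was listed for CaCo-2 as a retained-intron form at 2.69 FPKM with input listed at 0. PSMD9, an assembly chaperone of the base, had 2 listed transcripts for HT-29, both of the nonsense-mediated decay class, and 3 for CaCo-2, of which 2 were of that class. PSMD11, a lid subunit, was listed by one retained-intron form in both tables, at 9.63 FPKM against 4.92 for HT-29 and at 4.80 with input listed at 0 for CaCo-2. PSMD12, another lid subunit, was at 3.29 FPKM against 0.445 for HT-29 and, by another transcript, at 2.84 against 1.41 FPKM in CaCo-2. PSMD3, also of the lid, was listed by one protein-coding form with input at 0 in both tables, at 3.22 FPKM for HT-29 and 1.57 for CaCo-2. A retained-intron form of PSMD3 in HT-29 was at 3.02 against 0.690 FPKM.

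Regulators and assembly chaperones numbered 10 of 17 past 2-fold for HT-29 (58.8%, against 56.0%) and 2 of 9 for CaCo-2 (22.2%, against 40.8%). PSME4, which encodes the nuclear activator PA200, was listed in both lines by ENST00000389993 (chromosome 2, 54091571 to 54197977, minus strand), annotated as a nonsense-mediated decay transcript. The HT-29 RIP held 4.54 FPKM against 0.823 in input, and the CaCo-2 RIP held 2.71 against 1.38. The authors' deposited table gives a q of 0.0125 for HT-29, the lowest of all members in that line, and 0.447 for CaCo-2. The log2 ratios were 1.6 and 0.64, and whether they differ between the lines was not tested.

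PSME1 and PSME2, the interferon-induced PA28 subunits, were at 5.27 against 2.70 FPKM and at 9.27 against 3.30 in HT-29. The same PSME2 processed transcript was at 5.35 against 1.81 FPKM in CaCo-2, a log2 ratio of 1.18 beside 1.26 in HT-29. PSME3, the nuclear PA28 gamma, had the highest member ratio of HT-29 (log2 2.89). It came from a protein-coding isoform at 6.72 FPKM against 0.0407, with a q of 0.532 in the authors' deposited table. Another PSME3 isoform in HT-29 was at 13.3 against 7.45 FPKM, a log2 ratio of 0.76. Isoforms of this gene thus lay on both sides of 2-fold. PSMF1, which encodes the inhibitor PI31, was listed by the same 2 isoforms in both tables. The higher of these 2 was at 3.19 FPKM against 1.67 for HT-29, and at 2.74 against 1.31 for CaCo-2. A further protein-coding PSMF1 isoform, listed for HT-29 only, was higher still, at 4.82 FPKM with input at 0 (log2 2.54). PSMG2, a chaperone of core assembly, had a shared isoform at 4.71 FPKM against 2.51 for HT-29, and 4.09 against 1.55 for CaCo-2. Only for HT-29 was PSMG2 also listed as a nonsense-mediated decay form, at 5.53 against 1.58 FPKM (log2 1.34). PSMG1, its partner, was listed for CaCo-2 at 4.13 FPKM against 2.57.

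E2 enzymes made up the largest group. UBE2S, the chain-elongating E2 of the anaphase-promoting complex, was the most abundant E2 of HT-29, at 26.8 FPKM in the RIP against 15.3 in input (log2 0.77). A UBE2S processed transcript, ENST00000592570, was listed in both lines with input at 0, and its RIP level was 2.13 FPKM for HT-29 and 7.70 for CaCo-2. The second value gives the highest member ratio of CaCo-2 (log2 3.12), with a q of 0.859 in the authors' deposited table. This transcript spans only 237 bases, and how many fragments its value rests on is unknown. UBE2C, the chain-starting E2 of the same complex, was listed in HT-29 by 3 protein-coding isoforms at 2.73 to 3.81 FPKM in the RIP, and in CaCo-2 by one at 3.83 against 0.00862 and one at 0.888 against 0.256 FPKM.

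The UBE2D family, broadly used E2 enzymes, was listed by several transcripts. UBE2D3 in HT-29 was at 16.7 FPKM in the RIP against 10.8 in input for a protein-coding isoform (log2 0.59). A processed transcript of the gene was at 8.99 against 1.07 (log2 2.27). The authors' deposited table gives them a q of 0.659 and 0.838, and how the authors' counting shared reads between isoforms is not known. UBE2D2 was listed by different transcripts, at 15.1 FPKM against 8.89 for HT-29 and 2.91 against 1.76 for CaCo-2. UBE2D1 was listed in CaCo-2 by 2 retained-intron forms, the higher at 3.02 against 1.08 FPKM. UBE2E3 in HT-29 had a protein-coding isoform at 8.43 against 2.14 FPKM (log2 1.59), with a q of 0.0934 in the authors' deposited table. A retained-intron form of the gene was at 9.12 against 5.12 FPKM (log2 0.73), and another protein-coding isoform at 1.51 with input listed at 0. UBE2B, which acts in DNA damage tolerance, had a processed transcript at 7.42 against 3.16 FPKM in HT-29 (log2 1.02), the member just above 2-fold. Its protein-coding form there was at 5.72 against 2.57 FPKM (log2 0.91), and a retained-intron form at 4.78 with input listed at 0. UBE2E1, of the same family as UBE2E3, was listed by one isoform with input at 0 in both tables, at 2.62 FPKM for HT-29 and 1.63 for CaCo-2. Other protein-coding UBE2E1 isoforms in CaCo-2 were at 4.70 against 1.98 and at 3.41 against 2.03 FPKM.

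UBE2Q2 carried 2 of the 4 member calls at q of 0.05 or less. The isoform ENST00000267938 (chromosome 15, 76135626 to 76193419) had 3.91 FPKM in the RIP against 2.33 in input for HT-29, and 4.81 against 1.97 for CaCo-2. The authors' deposited table gives it a q of 0.605 for HT-29 and 0.0215 for CaCo-2. A second isoform, ENST00000338677, was listed in HT-29 at 1.89 FPKM with input at 0 and a q of 0.0361 in that table. In CaCo-2 a copy of the 7SL RNA, RN7SL510P, was listed within the span of UBE2Q2 on the same strand at 3.54 FPKM in the RIP. Over all members, 3 of 105 transcripts in HT-29 had q at or below 0.05 in the authors' deposited table (2.86%, against 3.08% of the table) and 1 of 85 in CaCo-2 (1.18%, against 2.24%).

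Of the E2 enzymes for other modifiers, UBE2M, a NEDD8 E2, was listed by ENST00000596985 in both lines with input at 0, with RIP levels of 3.33 FPKM for HT-29 and 1.29 for CaCo-2. Another protein-coding UBE2M isoform was at 9.29 against 4.75 FPKM in HT-29 (log2 0.84), and a retained-intron form at 1.15 against 0.345 in CaCo-2. UBE2F, the other NEDD8 E2, was listed in HT-29 by 3 transcripts with input at 0, at up to 3.94 FPKM. UBE2L3, an E2 that works with HECT and RBR ligases, was listed by the same isoform in both lines, with 3.76 FPKM against 1.01 for HT-29 and 7.82 against 2.63 for CaCo-2. Its log2 ratios were 1.24 and 1.28. UBE2N, whose product builds chains with the inactive variants UBE2V1 and UBE2V2, was listed in HT-29 by 3 isoforms at 4.45 to 9.32 FPKM.

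UBB, a polyubiquitin gene (ENST00000395837, chromosome 17, 16284655 to 16286054) was listed in CaCo-2 at 2.60 FPKM with input at 0. Its ubiquitin repeats resemble those of its pseudogene copies, and how the authors' counting shared reads between them is not known.

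Of the 105 and 85 member transcripts, 23 were listed in both tables, which is 21.9% of those for HT-29 and 27.1% of those for CaCo-2 (19.5% and 16.1% for all listed transcripts). They came from 20 of the 38 shared gene names, and the other 18 shared genes were listed by different transcripts. In 8 of the 23 (34.8%, against 11.7% of all shared transcripts), input was listed at 0 in both lines. These were transcripts of UBE2S, PSMD2 (a pair), UBE2E1, PSMD3, UBE2B, PSMA1 and UBE2M. Of the 21 shared transcripts that passed the filter in both lines, 12 passed 2-fold in HT-29, 14 in CaCo-2 and 11 in both. The same counts among all 1784 such transcripts of the tables were 1026, 761 and 535. With input above 0 in both lines, UBE2L3, PSME2 and PSMD9 were past 2-fold in both; PSMD9 had 3.27 FPKM against 0.718 for HT-29 and 2.68 against 0.833 for CaCo-2. RIP levels were higher in HT-29 than in CaCo-2 for 19 of the 23, and for 1288 of all 1928 shared transcripts. The tables were normalised separately, so this sets no level between the lines.

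**Figure D4:**
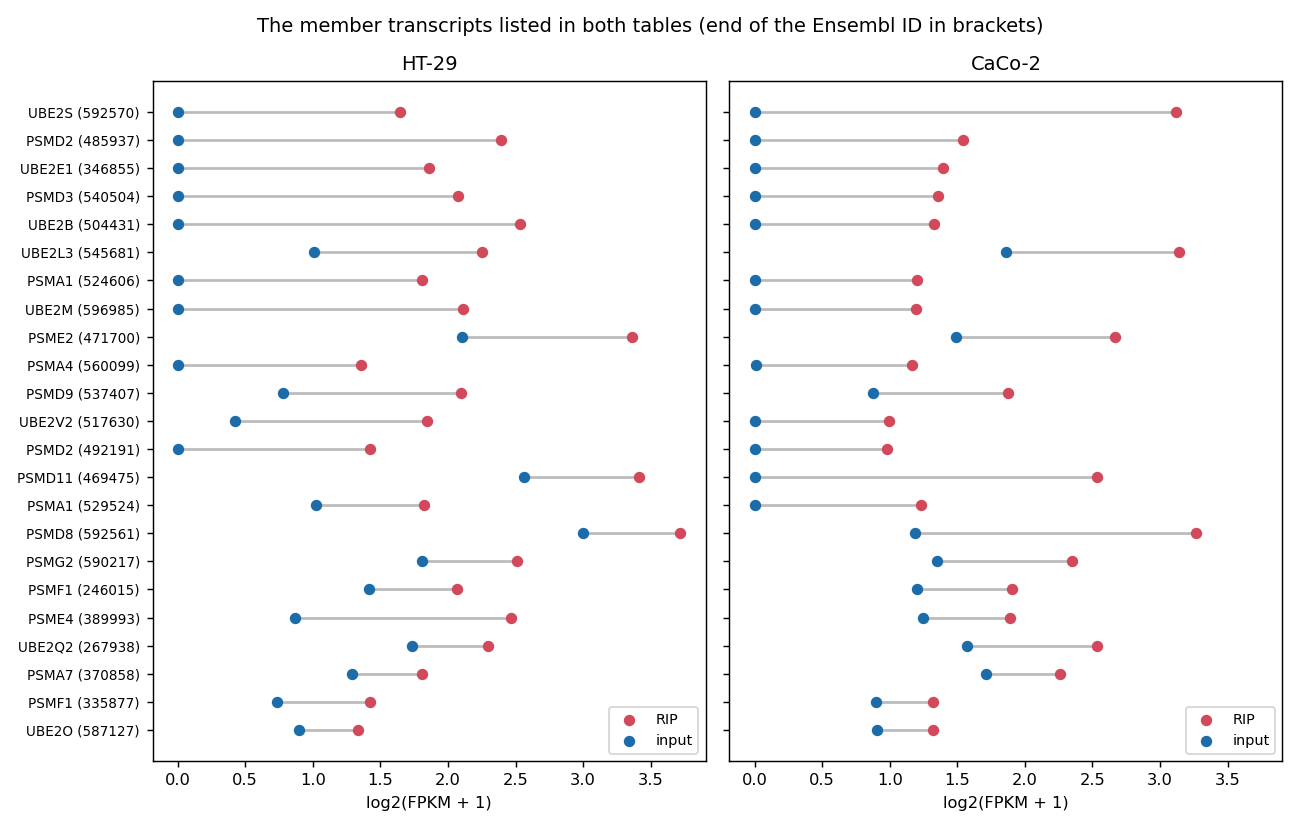
Level in the RIP (red) and in the input (blue) as log2 of FPKM plus 1 (x axis) for the 23 member transcripts listed in both tables, ordered by the lower of their 2 ratios. UBE2L3 and PSME2 lie well above 0 in every library, whereas the inputs of UBE2S and UBE2E1 lie at 0 in both lines.

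Listed transcripts of a member gene could lie on both sides of 2-fold. In HT-29, 33 of 56 member genes had more than 1 listed transcript (58.9%, against 32.4% of all gene names), and in 18 of the 33 the transcripts lay on both sides of 2-fold. In CaCo-2, 21 of 51 had more than 1 (41.2%, against 35.1%), and of the 17 with more than 1 past the filter, 9 had transcripts on both sides. For 16 member genes for HT-29 and 18 for CaCo-2 no protein-coding transcript was listed (28.6% and 35.3%, against 42.2% and 47.2% of all gene names). The median gap between the highest and lowest log2 ratio within a gene was 0.84 for HT-29 and 0.63 for CaCo-2. Neither these gaps nor the counts on both sides of 2-fold were computed over all listed genes. Whether they are particular to the members is therefore not known.

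By class, nonsense-mediated decay transcripts, which carry an early stop codon, passed 2-fold in 17 of 18 cases among HT-29 members (94.4%), against 60.2% of all such transcripts listed. UBE2D2 was the exception. In CaCo-2 the count was 3 of 6 (50.0%, against 47.3%). Where both libraries had at least 1 FPKM, 5 of 6 passed for HT-29 (against 25.3% of all such transcripts) and 0 of 2 for CaCo-2 (against 16.1%). Of the 18 in HT-29, 10 had an input at 0 (55.6%, against 36.3%), and its part in the count was not tested. Processed transcripts of members passed in 8 of 9 cases for HT-29 and 7 of 9 for CaCo-2, against 63.3% and 45.1% of all listed ones. Input was at 0 for 2 of the 9 in HT-29 (22.2%, against 39.8%) and 6 of the 9 in CaCo-2 (66.7%, against 34.7%). The part of these zeros was not tested either. Retained-intron members passed in 11 of 23 and 8 of 25 cases, near the 52.0% and 32.0% of the tables, and 0 of 6 and 0 of 5 did where neither library was under 1 FPKM (against 22.4% and 8.23% of the tables). Members of the protein-coding class passed at 52.7% and 44.4%, beside 53.2% and 42.0%.

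**Figure D5:**
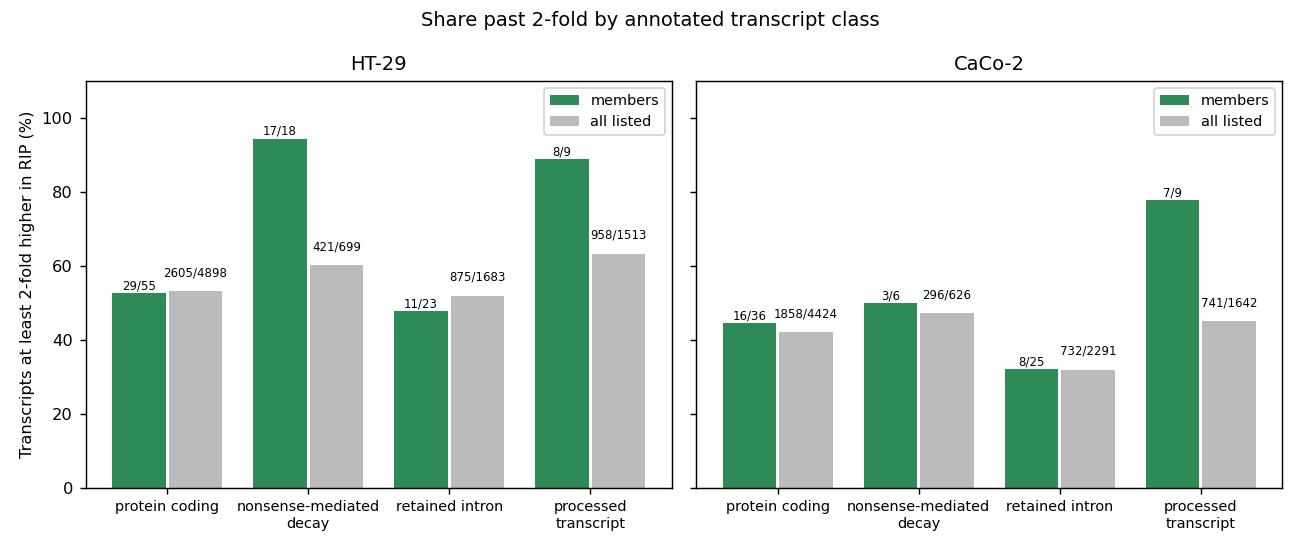
Share of transcripts at least 2-fold higher in the RIP (y axis, %, from 0) by annotated class, for members (green) and all listed transcripts (grey), with the counts above each bar. The nonsense-mediated decay bar of HT-29 members (17 of 18) lies furthest above its table bar.

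Other genes of the route were also listed. Of 22 other proteasome genes (receptors, deubiquitinases, assembly and shuttle factors), 11 were listed for HT-29 and 8 for CaCo-2, with 9 of 20 and 8 of 15 transcripts past 2-fold. VCP, the segregase that extracts ubiquitinated proteins, was listed by a retained-intron form at 25.2 FPKM in the RIP against 15.7 in input in HT-29. NFE2L1, the transcription factor that induces proteasome genes, was listed by different transcripts, at 6.66 FPKM against 3.66 for HT-29 and 5.35 against 2.38 for CaCo-2. ADRM1, a ubiquitin receptor of the 19S particle, had one processed transcript in both tables, at 9.13 FPKM against 4.86 for HT-29 and 5.43 against 2.22 for CaCo-2.

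Of 20 E1 enzymes and ubiquitin or ubiquitin-like precursors, 12 were listed for HT-29 and 13 for CaCo-2, with 12 of 21 and 8 of 20 transcripts past 2-fold. RPS27A, a fusion of ubiquitin with a ribosomal protein, was listed by a retained-intron form at 43.3 against 25.4 FPKM in HT-29. SUMO3 in CaCo-2 was at 12.7 against 4.36 FPKM (log2 1.36) with a q of 0.000637 in the authors' deposited table.

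Among 34 core genes of cullin-RING ligases and the anaphase-promoting complex, 21 were listed for HT-29 and 24 for CaCo-2, with 22 of 34 and 16 of 38 transcripts past 2-fold. TCEB2, the elongin B adaptor, was at 22.3 FPKM in the RIP against 9.33 in input and RBX1, the RING subunit, at 7.71 against 3.84 in HT-29. FBXW11, a paralogue of BTRC that also recognises beta-catenin, was at 2.56 against 0.698 FPKM in CaCo-2 with a q of 0.0281 in the authors' deposited table. BTRC itself was listed for CaCo-2 by 2 protein-coding isoforms, at 3.05 FPKM against 1.74 (log2 0.57) and 2.75 against 0.808 (log2 1.05), for which the authors' deposited table gives a q of 1 and of 0.0298. For HT-29 no BTRC transcript was listed, and FBXW11 was listed by a nonsense-mediated decay form at 2.11 FPKM with input at 0. Both genes were named after their values were seen. Of 20 other E3 ligases, 17 were listed for HT-29 and 12 for CaCo-2, with 15 of 28 and 8 of 26 transcripts past 2-fold. NEDD4L was listed by different transcripts, at 7.41 FPKM against 2.93 for HT-29 and 5.18 against 3.01 for CaCo-2. SIAH1, a ligase that can target beta-catenin, was at 5.05 against 3.17 FPKM in HT-29. Set against 56.0% and 40.8% of all listed transcripts, these lists lay between 45.0% and 64.7% for HT-29 and between 30.8% and 53.3% for CaCo-2.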

How the data were processed

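The 2 deposited tables, 1 per line, hold a row per Ensembl transcript with FPKM in RIP and input, and the authors' fold, p-value and q-value. Per the submitters' processing notes, CASAVA 1.4, Bowtie2, TopHat2 2.0.8, Cufflinks and Cuffdiff were used with hg19. How rows were selected and whether libraries were stranded is not given in the sources used here. Library strand being unknown, reads of overlapping genes cannot be told apart. The deposited p-values, q-values and log2 folds come from 1 library per side. The deposited log2 folds and other columns such as the test statistic were not used. No sample column was left unmapped (0).

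With Python 3.11.15 and pandas 2.3.3, log2((RIP + 1)/(input + 1)) was computed per transcript (pseudocount 1 FPKM). Transcripts with at least 1 FPKM in 1 of the 2 libraries were kept, and 2-fold was the threshold. Starts were converted to count from 1. RefSeq (GRCh38.p14) served for names alone and matched 56 of 56 and 50 of 51 member names.

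The members and lists were chosen with earlier results of these data known. Named transcripts were, per group and line, the 3 highest in RIP, the 3 highest ratios with 1 FPKM in both libraries, those with q at or below 0.05, those nearest 2-fold, UBB, and 10 listed in both tables, with up to 4 genes per list by RIP level. Other named members were chosen after their values were seen, and some that the rule names are not reported here. Alternatives were another pseudocount, other filters and 1 transcript per gene.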

Additional observations from a re-analysis of the deposited data

How the results depend on the processing

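Without a filter, or with 0.1 FPKM added in place of 1, the counts past 2-fold for all members, the 20S core, the 19S particle and the E2 enzymes stayed within 1.5 times their main value in both lines. The median log2 ratio of CaCo-2 members moved to 1.44 with 0.1 FPKM added, beside 1.43 over all listed. Requiring 1 FPKM in each of the 2 libraries, the counts for all members, 20S, 19S and E2 were 17 of 47, 4 of 12, 5 of 9 and 6 of 19 in HT-29, and 3 of 22, 0 of 4, 1 of 3 and 1 of 9 in CaCo-2. With 1 transcript per gene they were 32 of 56, 6 of 12, 9 of 13 and 12 of 23 in HT-29, where 55.6% of all genes passed, and 21 of 50, 1 of 7, 9 of 15 and 9 of 19 in CaCo-2, where 41.0% did. Leaving out transcripts with input at 0, chosen after seeing the data, gave 29 of 69, 5 of 16, 8 of 13 and 11 of 27 in HT-29 (35.5% over all listed), and 7 of 50, 1 of 9, 3 of 13 and 2 of 18 in CaCo-2 (19.5% over all listed). These 3 settings use fewer transcripts by construction. In CaCo-2 the share of members past 2-fold without inputs at 0 was 14.0%, below the table, whereas it was 44.9% against 40.8% with them. The E2 share of HT-29 with 1 transcript per gene was 52.2%, also below its table. A fit of RIP against input paired by line was not run, since listing required a higher level in the RIP within each line, which sets the sign. Depth, and so the precision of a single value, is unknown.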

Other observations

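Copies of member genes that the choice left out were also listed. In HT-29, 3 pseudogenes with member names were listed, among them UBE2SP1 (chromosome 17, 15607546 to 15608214) at 12.7 FPKM in the RIP against 7.44 in input, a log2 ratio of 0.70 beside 0.77 for UBE2S itself. UBE2D3P2 was at 1.80 against 0.366 FPKM. In CaCo-2 the number of such pseudogenes was 0. Copies of UBB were listed in HT-29, where UBB itself was not: UBBP4, classed as protein-coding, was at 8.23 against 2.46 FPKM, UBBP1 at 3.27 and UBBP2 at 2.29 FPKM with input listed at 0. In CaCo-2, TMEM189-UBE2V1, a readthrough gene that overlaps the 3 listed UBE2V1 transcripts, was at 2.10 FPKM with input listed at 0. These names were chosen after their values were seen.

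Overlaps were counted for member transcripts with other listed genes only, so overlapping genes that were not listed are not seen. The share over all listed transcripts was not computed. Another listed gene overlapped 1 of 105 member transcripts in HT-29, where EMC9 lies on the strand opposite PSME1. In CaCo-2 this was so for 7 of 85, of which 2 overlap on the opposite strand. PSMD5-AS1, named as antisense to PSMD5, was listed in CaCo-2 by 3 transcripts at 1.34 to 2.12 FPKM in the RIP, while PSMD5 itself was not listed. WWP2, a HECT ligase named after its values were seen, had 4.64 FPKM against 1.31 for HT-29, with a q of 0.00762 in the authors' deposited table.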
